A study of Mus musculus with 3 samples.

Results

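The genes described here are 39 genes of macrophages and dendritic cells, measured in 3 diffuse-type gastric cancers of mice and in a pool of normal gastric mucosae. They were found by the gene name that the array files give to each spot, using all probes of each gene. The set was drawn up by cell type and function, without a cut on measured values, but with earlier results of these data known. Of the 39 genes, 38 had spots under the listed names, on 43 probes in 52 spots, and 36 passed the filter on dim probes, out of 19434 genes that passed it in all. Cd163 and Clec4a2 had spots but were too dim to be tested, and no spot carried the name Pirb.

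Each tumour was a primary cancer of a 12-month-old mouse of genotype Atp4b-Cre+;Cdh1loxP/loxP;Trp53loxP/loxP. The pool held normal gastric mucosae of 5 mice of 12 months of genotype Atp4b-Cre-;Cdh1loxP/loxP;Trp53loxP/loxP, so both groups carried the floxed alleles and only the tumour mice carried the recombinase. Atp4b encodes a subunit of the gastric proton pump and its promoter is active in parietal cells. Each of 3 arrays held 1 tumour in red (Cy5) and the same pool in green (Cy3). The labels give removal of the stroma, mechanically in 30 mM EDTA, for the mucosae and do not give it for the tumours. Macrophages live mainly in the stroma, so a higher ratio for these genes and the loss of stroma from the pool cannot be told apart in this design. Nor can bulk RNA tell fewer cells of a type from less RNA per cell.

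Macrophages and dendritic cells take up particles, dying cells and microbes through Fc receptors, scavenger receptors and C-type lectins. Several of these receptors have no signalling tail of their own and pair with the small adaptors encoded by Tyrobp (DAP12) and Fcer1g (the common gamma chain), whose tyrosine motifs, called ITAMs, recruit the kinase Syk. Inhibitory receptors such as that encoded by Sirpa recruit phosphatases that dampen this signal. Engulfed material is then broken down in lysosomes and exposed to oxidants made by the phagocyte NADPH oxidase.

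Values are normalised signals in arbitrary units and log2 ratios of tumour over pool. Signals are comparable between channels for 1 probe but not between probes. Between arrays they compare less well, since for some probes the pool signal moved with that of the tumour on its array. In brackets after a gene stand the mean log2 ratio ± SD over the 3 arrays and, where given, the adjusted p of limma. Of the gene spots, 64.0 to 66.8% in red and 52.5 to 54.2% in green were well above background, and the 3 arrays limit the precision. The targeted gene Cdh1 was 18.9-fold lower in the tumours (adjusted p = 0.00186), and Trp53 had a log2 ratio of -0.21 (adjusted p = 0.161). The Trp53 probe was dim, with 93.2, 89.3 and 74.2 in the tumours, against 101, 97.1 and 96.7 in the pool. Its ratio therefore gives little information, and the authors' deposited values were -0.16, -0.44 and -1.56. No source used here names the deleted exons, so whether the Cdh1 and Trp53 probes lie inside the deletion is unknown. A gene was called when the log2 ratio differed from 0 at an adjusted p under 0.05 in limma, with Benjamini-Hochberg adjustment over all 19434 genes, and by at least 2-fold. The pool is 1 control sample and its 3 aliquots carry no spread among normal mice, and a dye effect stays in every ratio.

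Of the 36 genes, 27 were called higher and 0 lower in the tumours, where 9.33% of all genes tested were called higher and 9.68% lower. None had a ratio below 0 at an unadjusted p under 0.05, and 31 had one above 0 at that level. Without the fold criterion 31 were higher, where 24.5% of all genes were. Their median log2 ratio was 2.11, against 0.05 over all genes. The filter itself favours a high ratio, since 10 of the 36 were well above background in the tumours and on no array in the pool. Among the 25 that were well above background on every array in both groups, 23 were called higher, where 9.49% of such genes were. Of those called, 19 were at least 4-fold higher and 4 at least 8-fold higher, namely Cd14, Trem2, Ncf4 and Fcer1g. These sizes depended on how background was treated, as given below. All 3 tumour signals lay above all 3 pool signals in 33 of the 36, as they did in 33.0% of all genes, and the exceptions were Ptpn6, Gpnmb and Sfpi1.

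**Figure D1:**
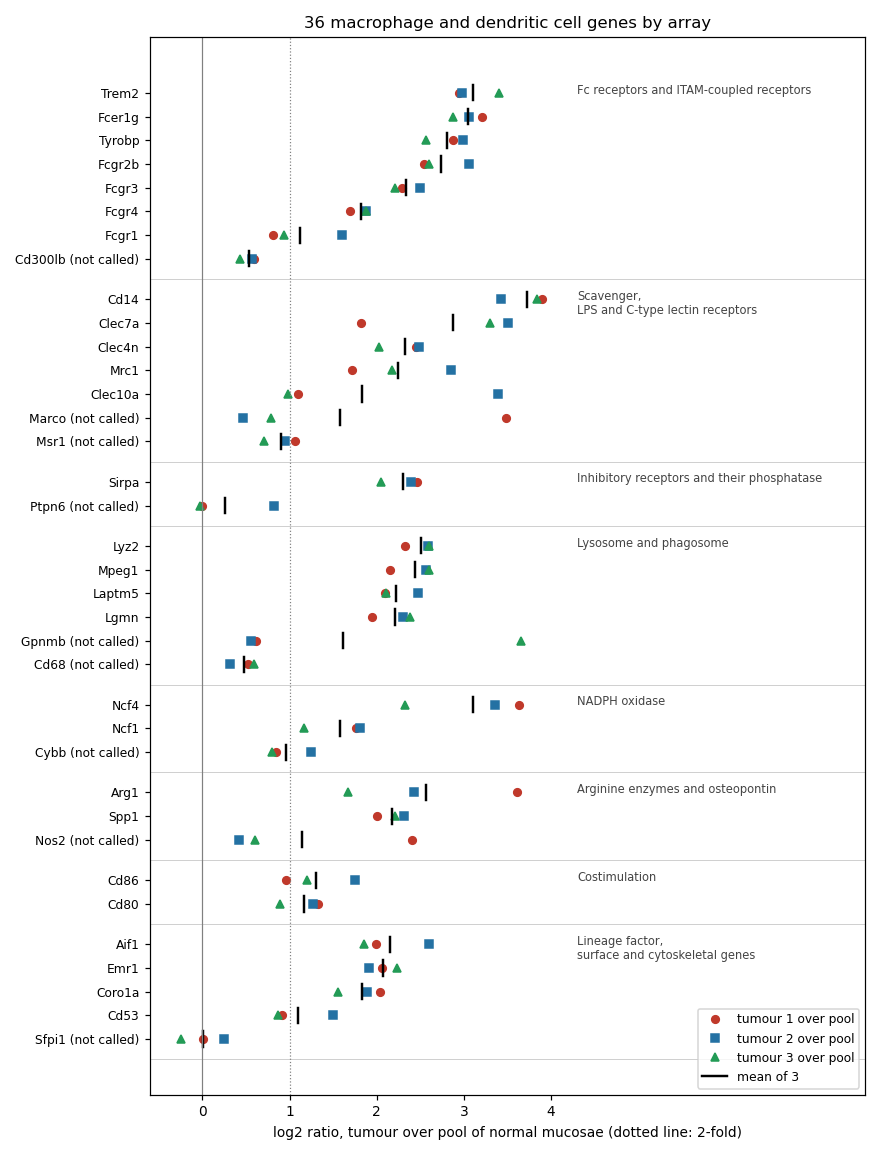
Log2 ratio of tumour over pool on each of the 3 arrays (points) and their mean (black bar) for the 36 genes kept, grouped by role, with genes that were not called named as such. Most genes lie to the right of the dotted 2-fold line on every array, while Marco, Clec10a, Gpnmb, Nos2 and Arg1 spread by 1.93 to 3.10 log2 units between tumours.

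Among the Fc receptors and the receptors and adaptors that signal through ITAMs, 7 of 8 were called higher, and the median log2 ratio of the list was 2.53. Trem2, a lipid receptor of macrophages that signals through Tyrobp, had signals of 1706, 1794 and 2508 in tumours 1, 2 and 3, against 222, 228 and 237 in the pool on the same arrays. Tumour 3 was the highest, and every tumour was far above the pool, whose 3 aliquots hardly differed. The mean log2 ratio was 3.11 ± 0.26 (SD, n = 3; adjusted p = 0.000587), a difference of 8.62-fold. Both adaptors were higher too. Fcer1g had signals of 4392, 4137 and 3794 in the tumours, against 476, 498 and 518 in the pool (3.04 ± 0.17; adjusted p = 0.000458). Tyrobp had 4683, 5749 and 4148 in the tumours, against 641, 723 and 702 in the pool (2.81 ± 0.22; adjusted p = 0.000602). The 3 tumours lay close to each other for each adaptor, and no tumour signal came near the pool. The Tyrobp probe, shown because this adaptor serves Trem2 and because its mm9 interval of 1728 bases is longer than its 60 bases, so that it spans at least 1 intron of the transcript, lies at chr7:31200651-31202378 and reads, with strand not assigned,
Tyrobp probe: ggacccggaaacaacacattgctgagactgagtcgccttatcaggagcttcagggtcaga

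The 4 receptors for IgG were all called higher. Fcgr2b, the inhibitory receptor, was read by 10 spots and had signals of 852, 1302 and 889 in the tumours, against 146, 157 and 147 in the pool (2.73 ± 0.28; adjusted p = 0.000803). Fcgr3, an activating receptor that needs Fcer1g, had 705, 878 and 657 in the tumours, against 145, 156 and 142 in the pool (2.33 ± 0.15; adjusted p = 0.00063). For both, tumour 2 was the highest and the groups did not overlap. Fcgr4, a further activating receptor, had a log2 ratio of 1.82 ± 0.11 (adjusted p = 0.000848), with values of 1.69, 1.88 and 1.88 on the 3 arrays. Its pool signal on array 2 (342) was above those on arrays 1 and 3 (205 and 239.9), and its tumour signals moved in the same order. Fcgr1, the high-affinity receptor, was lowest of the 4 at 1.11 ± 0.42 (adjusted p = 0.0109), with 187, 351 and 216 in the tumours, against 106, 116 and 113 in the pool. Its ratio was 0.87 without tumour 2, below the 2-fold threshold, and the pool was well above background on 2 of 3 arrays. The probes of Fcgr2b, Fcgr4, Fcgr3 and Fcer1g lie in this order on chromosome 1 of mm9, at 172890988 to 172891047, 172959738 to 172959797, 172984129 to 172984188 and 173159794 to 173159853. The Fc receptor genes are related in sequence, and cross-hybridisation between them was not tested. Cd300lb, an activating receptor that pairs with Tyrobp, was dim, with 88.6, 84.9 and 86.3 in the tumours, against 58.6, 57.3 and 63.8 in the pool, and was not called (0.53 ± 0.08; adjusted p = 0.012, under 2-fold). Its ratio was -0.64 with centring on spike-in controls.

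Of the 9 scavenger, lipopolysaccharide and C-type lectin receptors, 7 could be tested and 5 were called higher, and the median log2 ratio of the list was 2.24. Cd14, the co-receptor for bacterial lipopolysaccharide, had the highest ratio of all 36 genes and ranked 65 of 19434. Its signals were 3296, 2293 and 3137 in the tumours, against 222, 213 and 219.6 in the pool, a difference of 13.2-fold (3.72 ± 0.25; adjusted p = 0.000458). Tumour 2 was the lowest of the 3 and was still far above the pool. Clec7a (dectin-1, a receptor for fungal beta-glucan) had 489, 1684 and 1574 in the tumours, against 139, 149 and 159.9 in the pool (2.87 ± 0.92; adjusted p = 0.00566). Tumours 2 and 3 were close, and tumour 1 was well below either in signal while above the pool. Clec4n (dectin-2, which pairs with Fcer1g) had 1871, 2433 and 1371 in the tumours, against 341, 434 and 338 in the pool (2.32 ± 0.26; adjusted p = 0.000962). Mrc1, the mannose receptor, had 535, 1269 and 741 in the tumours, against 163, 176 and 165 in the pool (2.24 ± 0.57; adjusted p = 0.00354), and was highest in tumour 2.

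Clec10a, a galactose-binding lectin of macrophages and dendritic cells, had signals of 184, 1098 and 191 in the tumours, against 85.7, 104 and 96.9 in the pool. The pool was not well above background on any array, so the mean difference is a bound of at least 3.54-fold, and tumour 2 alone carried a high signal. Its log2 ratio of 1.83 ± 1.36 passed narrowly (adjusted p = 0.0485). It did not pass without tumour 1 (2.19, adjusted p = 0.0665) or without tumour 3 (2.25, adjusted p = 0.0901). Without tumour 2 its ratio was smaller but passed (1.04, adjusted p = 0.0164). Neither class A scavenger receptor was called. Marco had 1307, 141 and 153 in the tumours, against 117, 102 and 89.2 in the pool, so only tumour 1 was bright (1.58 ± 1.66; adjusted p = 0.109; 0.63 without tumour 1). Msr1 had 185, 155 and 136 in the tumours, against 88.5, 80.5 and 83.7 in the pool (0.90 ± 0.18; adjusted p = 0.00515, under 2-fold), and a second Msr1 probe gave 0.61. Cd163, a haemoglobin scavenger receptor, had 65.6, 67.4 and 72.8 in the tumours, against 70.5, 75.6 and 62.9 in the pool, and Clec4a2, an inhibitory lectin, had 78.7, 75.8 and 71.0 against 72.3, 80.5 and 78.4. Both were not well above background on any array in the pool, and were so on 1 and 2 arrays in the tumours, so no difference is given for them.

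Sirpa, the inhibitory receptor for CD47, was called higher, with 1011, 976 and 767 in the tumours, against 184, 186 and 185 in the pool (2.30 ± 0.22; adjusted p = 0.000848). Tumour 3 was the lowest, and the pool signals were nearly equal. Ptpn6, the phosphatase SHP-1 of blood cells that such receptors recruit, was bright in both groups and was not called. It had 867, 1553 and 778 in the tumours, against 869.9, 881 and 794 in the pool (0.26 ± 0.48; adjusted p = 0.341). Only tumour 2 was above the pool, and the mean was -0.02 without it. With median centring, which raised the median of all genes to 0.77, Ptpn6 was called higher (1.40, adjusted p = 0.00712). Pirb, a receptor for MHC class I, had no spot of that name. A probe named Lilrb3 in the files carries an accession that the RefSeq table gives to Pirb, and it had 3182, 3008 and 1775 in the tumours, against 267, 289.5 and 228 in the pool (3.30 ± 0.31; adjusted p = 0.00064). It falls outside the rule by name and is not counted among the 36.

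Of 6 lysosome and phagosome genes 4 were called higher, and the median log2 ratio of the list was 2.22. Lyz2, the lysozyme of macrophages and granulocytes, had 729, 859 and 969 in the tumours, against 145, 143 and 160.0 in the pool (2.51 ± 0.15; adjusted p = 0.000578). The probe of its close relative Lyz1, the lysozyme of Paneth cells, had a ratio of 3.77 ± 0.22 (SD, n = 3), and the 2 transcripts may share hybridisation. Mpeg1, a pore-forming protein of macrophages, had 2009.6, 3843 and 3260.2 in the tumours, against 454, 649.7 and 540.0 in the pool (2.43 ± 0.25; adjusted p = 0.000856). Laptm5, a lysosomal membrane protein of blood cells, had 889, 1250.0 and 892 in the tumours, against 208, 226 and 208 in the pool (2.22 ± 0.21; adjusted p = 0.000868). Lgmn, an asparagine-specific lysosomal protease, had 6151, 7607 and 9334 in the tumours, against 1598, 1539.5 and 1788 in the pool (2.21 ± 0.23; adjusted p = 0.000956). In all 4 the groups lay far apart. The remaining 2 genes were not called and behaved differently from each other. Gpnmb, a glycoprotein of lysosome-rich macrophages, had 117, 137 and 1579 in the tumours, against 76.2, 93.2 and 126 in the pool. Tumour 3 alone was bright, tumour 1 fell within the range of the pool, and the mean of 1.61 ± 1.77 (adjusted p = 0.121) was 0.58 without tumour 3. Cd68, a lysosomal glycoprotein used as a general macrophage marker, had 136, 115 and 142 in the tumours, against 94.2, 91.9 and 94.3 in the pool. Its tumours were evenly and slightly above the pool (0.48 ± 0.14; adjusted p = 0.0209, under 2-fold), near the lowest signals well above background, and the ratio was -0.06 with spike-in centring.

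The NADPH oxidase genes Ncf4 and Ncf1 were called higher, and Cybb was not. Ncf4, the p40 subunit, had 3518, 2899.9 and 1377 in the tumours, against 284, 284 and 276 in the pool (3.10 ± 0.69; adjusted p = 0.0025). Tumour 3 was the lowest and lay well below the other tumours. Ncf1, the p47 subunit, had 376, 399 and 252 in the tumours, against 111, 114 and 112 in the pool (1.58 ± 0.36; adjusted p = 0.0034), and was also lowest in tumour 3. Cybb, the catalytic subunit, had 168, 257 and 182 in the tumours, against 93.3, 108 and 105 in the pool, where it was not well above background (0.96 ± 0.25; adjusted p = 0.00629). It fell just short of 2-fold.

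Arg1 and Nos2 encode enzymes that compete for arginine, and Spp1 encodes the secreted protein osteopontin. Spp1 was evenly higher, with 3406, 5865 and 4238 in the tumours, against 850.3, 1183 and 917 in the pool (2.17 ± 0.16; adjusted p = 0.000748). Arg1 had 1495, 581 and 315 in the tumours, against 123, 108 and 98.6 in the pool, which was not well above background on any array. It was at least 5.93-fold higher (2.57 ± 0.97; adjusted p = 0.00847), with all 3 tumours above the pool and tumour 1 above the other two. Nos2 had 664, 131 and 149.7 in the tumours, against 126, 97.7 and 98.6 in the pool, and was not called (1.14 ± 1.09; adjusted p = 0.091; 0.51 without tumour 1). It was called higher with an offset of 0 (1.92, adjusted p = 0.0296), with median centring (1.66, adjusted p = 0.0353) and with the authors' deposited values (1.77, adjusted p = 0.0495). Tumour 1 was the highest for both enzymes.

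Both costimulatory genes, whose proteins are displayed to T cells, were called higher by modest amounts. Cd86 had 242, 435 and 279.7 in the tumours, against 125, 129.9 and 122 in the pool (1.30 ± 0.40; adjusted p = 0.00672), and was highest in tumour 2. Cd80 had 382, 349.7 and 251 in the tumours, against 152, 145 and 136 in the pool (1.16 ± 0.24; adjusted p = 0.00374). A second Cd80 probe was too dim to be tested.

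Of 5 lineage, surface and cytoskeletal genes 4 were called higher. Emr1 (Adgre1), which encodes the mouse macrophage antigen F4/80, had 680.1, 572 and 748 in the tumours, against 163, 152 and 159 in the pool (2.07 ± 0.16; adjusted p = 0.000818). Aif1, the actin-binding protein Iba1, had 1326, 2732 and 1347 in the tumours, against 333, 452 and 371 in the pool (2.15 ± 0.39; adjusted p = 0.00194), and tumour 2 was well above the others in signal. Coro1a, an actin regulator of white blood cells in general, had 2847, 5042 and 1970.4 in the tumours, against 696, 1367 and 668 in the pool (1.83 ± 0.24; adjusted p = 0.00136). The pool of Coro1a was itself higher on array 2, as was the tumour there, so the ratio varied less than the signals did. Cd53, a tetraspanin of white blood cells, was at least 2.13-fold higher in the main setting (1.09 ± 0.35; adjusted p = 0.00805). It had 156, 249.7 and 140.0 in the tumours, against 83.4, 88.5 and 76.6 in the pool. Its ratio was 0.89 without tumour 2 and 0.65 with spike-in centring, and it was not called in either case. Where Emr1, Mpeg1 and Laptm5 had a second, dimmer probe, its ratio was smaller, at 1.08, 1.39 and 1.50, and each was called higher in a fit over all probes, where 8.44% of probes were.

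Sfpi1, which encodes the myeloid transcription factor PU.1, was the lowest of the 36. It had 78.7, 101 and 75.2 in the tumours, against 78.1, 84.6 and 89.5 in the pool, close to the lowest signals well above background and with overlapping groups. The log2 ratio was 0.004 ± 0.25 (SD, n = 3; adjusted p = 0.984), and was at or below 0 without tumour 1, without tumour 2, and with median or spike-in centring. A probe this dim gives little information on the transcript. Its sequence, shown because the value rests on this single probe, lies at chr2:90939665-90953452 of mm9, an interval of 13788 bases for a probe of 60 bases, with strand not assigned,
Sfpi1 probe: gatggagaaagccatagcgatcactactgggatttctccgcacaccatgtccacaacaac

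PU.1 is known to bind purine-rich DNA with the core GAGGAA. RefSeq promoter windows on GRCm38.p6, from 250 bases before to 50 after the transcript start, were available for 24 of the 36 genes. The core was present on at least 1 strand in 13 of the 24 (54.2%), and in 31.3% of the 27025 genes with a window. The longer form GAGGAAGT, which contains the core, was in 3 of the 24 (12.5%) and in 3.7% of all genes. These are matches of letters, with no binding measured. The windows of the 5 called genes with the highest ratios among those that hold the core are given below, 5′ to 3′ on the strand of the gene, with GAGGAA or its reverse complement TTCCTC in capitals. Their coordinates are chr17:48346151-48346450 on the plus strand for Trem2, chr6:129472730-129473029 on the minus strand for Clec7a, chr1:171059354-171059653 on the minus strand for Fcgr3, chr2:14229164-14229463 on the plus strand for Mrc1 and chr4:130913066-130913365 on the plus strand for Laptm5.
Trem2: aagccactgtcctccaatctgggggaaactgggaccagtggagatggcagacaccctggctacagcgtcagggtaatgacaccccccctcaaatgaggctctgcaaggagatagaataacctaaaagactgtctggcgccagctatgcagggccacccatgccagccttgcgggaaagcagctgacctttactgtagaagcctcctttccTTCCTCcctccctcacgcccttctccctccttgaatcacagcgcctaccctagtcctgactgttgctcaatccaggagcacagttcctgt
Clec7a: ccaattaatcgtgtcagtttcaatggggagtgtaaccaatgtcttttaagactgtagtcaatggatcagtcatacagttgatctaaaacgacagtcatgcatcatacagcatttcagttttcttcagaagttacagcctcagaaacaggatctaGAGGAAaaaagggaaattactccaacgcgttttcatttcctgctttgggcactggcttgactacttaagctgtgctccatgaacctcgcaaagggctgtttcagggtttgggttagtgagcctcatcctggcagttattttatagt
Fcgr3: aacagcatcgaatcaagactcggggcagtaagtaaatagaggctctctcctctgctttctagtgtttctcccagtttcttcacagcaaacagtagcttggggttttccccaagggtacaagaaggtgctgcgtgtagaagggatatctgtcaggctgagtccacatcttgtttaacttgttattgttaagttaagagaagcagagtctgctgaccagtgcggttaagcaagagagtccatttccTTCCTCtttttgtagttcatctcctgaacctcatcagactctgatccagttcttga
Mrc1: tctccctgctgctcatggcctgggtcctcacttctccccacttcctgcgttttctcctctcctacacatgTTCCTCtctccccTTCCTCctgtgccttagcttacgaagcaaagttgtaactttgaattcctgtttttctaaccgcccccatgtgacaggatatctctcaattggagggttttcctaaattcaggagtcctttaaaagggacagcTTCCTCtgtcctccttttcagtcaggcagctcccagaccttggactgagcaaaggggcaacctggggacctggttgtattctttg
Laptm5: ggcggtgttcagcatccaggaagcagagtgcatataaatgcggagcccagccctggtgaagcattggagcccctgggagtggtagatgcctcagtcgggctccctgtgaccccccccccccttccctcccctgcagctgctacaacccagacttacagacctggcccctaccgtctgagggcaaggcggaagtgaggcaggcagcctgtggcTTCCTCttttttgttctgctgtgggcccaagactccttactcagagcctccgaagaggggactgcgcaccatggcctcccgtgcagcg
The first capital lies 40 bases before the start in Trem2, 96 before it in Clec7a, 6 before it in Fcgr3 and 38 before it in Laptm5. Clec7a and Fcgr3 each have a second listed start, which the same match precedes by 90 and 15 bases. None of the printed windows holds the longer form GAGGAAGT on either strand. The Mrc1 window holds 3 matches, at 180, 167 and 35 bases before the start.

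The tumours differed from one another in which of these genes were high. Each tumour was read on 1 array, so differences between tumours and between arrays cannot be told apart. The SD of the log2 ratio was below 0.3 in 22 of the 36 and above 0.5 in 8, and it was above 0.5 in 11.6% of all genes. The median SD was 0.25 over the 36 and 0.19 over all genes. The median SD of the tumour signal was 0.38 log2 units over the 36 and 0.20 over all genes. Of the 8 variable genes, Marco, Nos2, Arg1 and Ncf4 were highest in tumour 1, Clec10a, Mrc1 and Clec7a in tumour 2, and Gpnmb in tumour 3. The gaps were large for some. Gpnmb in tumour 3 was 8.20-fold above the next tumour in ratio, Marco in tumour 1 was 6.51-fold above, and Clec10a in tumour 2 was 4.91-fold above. For Clec7a and Ncf4 the difference was instead 1 low tumour, tumour 1 for Clec7a and tumour 3 for Ncf4. Across the 36 genes, tumour 2 had the highest ratio for 18, tumour 1 for 11 and tumour 3 for 7, with medians of 2.31, 2.00 and 1.95 on arrays 2, 1 and 3.

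**Figure D2:**
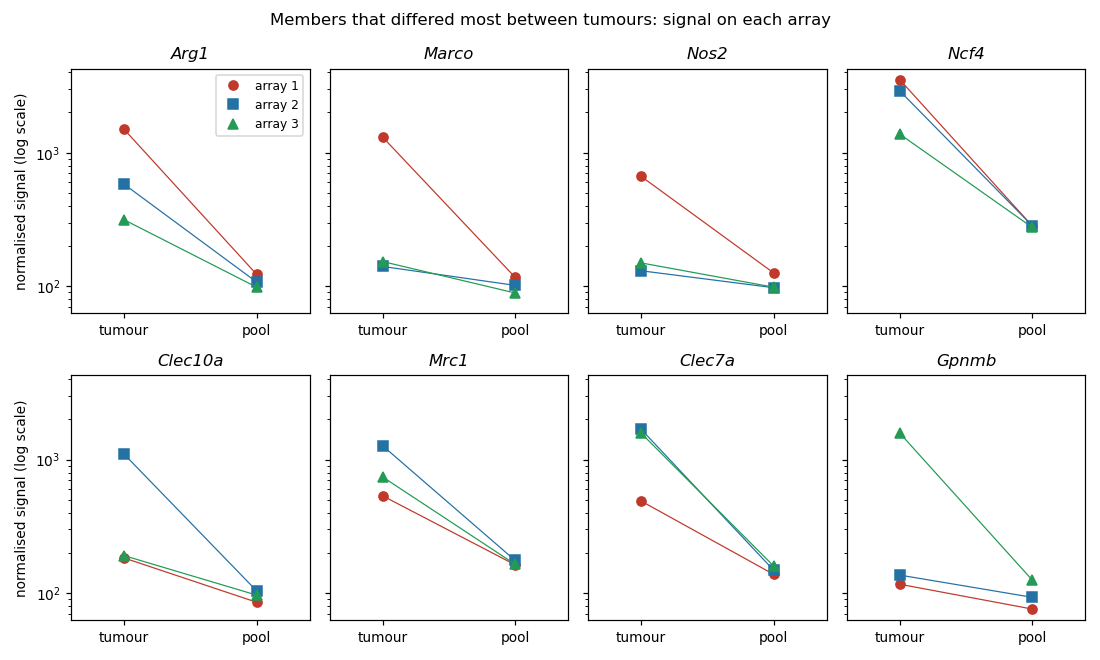
Normalised signal (log scale) of each tumour (left of each panel) and of the pool on the same array (right) for the 8 genes whose log2 ratio had an SD above 0.5, with lines joining the channels of 1 array. The pool signals lie closer together than the tumour signals in every panel, with tumour 1 alone bright for Marco, tumour 2 for Clec10a and tumour 3 for Gpnmb.

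Markers of other white blood cells also differed between the tumours. All 15 neutrophil genes measured had a positive ratio and 10 were called higher, with medians of 3.55, 1.50 and 2.11 in tumours 1, 2 and 3. Their summed signal was 249949 in tumour 1 and 51113 and 61551 in tumours 2 and 3, against 13207 to 15186 in the pool. Such a sum follows its brightest probes, and most of the pool sum was Csf3r, which was not called. Csf3r had 19044 to 20178 in the tumours, against 10817 to 11965 in the pool. The calgranulin genes S100a9 (6.70 ± 1.06) and S100a8 (6.55 ± 1.44) and the granule genes Ltf (4.68 ± 1.24) and Camp (4.34 ± 1.07, at least 20.2-fold) had the highest ratios. By median and by sum, tumour 1 was highest for neutrophil genes, and it was highest too for Marco, Nos2, Arg1 and Ncf4. Neutrophils too express several of the 36 genes, among them Cd14, Fcer1g, Tyrobp, Ncf1, Ncf4 and Cybb. Of these, Cd14, Fcer1g and Ncf4 had their highest ratio in tumour 1. Tyrobp, Ncf1 and Cybb had theirs in tumour 2. Some of these ranks were near ties, such as Ncf1 (1.76 in tumour 1 and 1.81 in tumour 2) and Cd14 (3.89 in tumour 1 and 3.84 in tumour 3). Among 8 genes of B and plasma cells, 7 were called higher, with medians of 1.58, 2.63 and 2.13. Sums over all 10 with a probe, dim ones included, were 6010.1 to 15796 in the tumours, against 1809 to 2174 in the pool. The called genes were led by Cd79b (3.55 ± 1.01), Pou2af1 (2.98 ± 0.73) and Ms4a1 (2.78 ± 0.89, at least 6.88-fold). Tumour 2 was highest for B cell genes and for Clec10a and Mrc1. Among 9 genes of T and NK cells, 4 were called higher, and the list median was 0.81. Sums over all 12 with a probe were 2795 to 3671 in the tumours, against 2071 to 2161 in the pool. Of 8 mast cell genes 0 were called by limma, 1 was higher and 2 lower at an unadjusted p under 0.05, and the median was -0.42. The list medians were -0.37, 0.16 and -1.39 in tumours 1, 2 and 3, and the genes moved in different ways. Mcpt1 (-1.76, 1.97 and -1.77), Mcpt2 and Mcpt4 had positive ratios in tumour 2 and negative ones in tumours 1 and 3. Hdc, the brightest of the 8 in the pool, had -0.01, -3.59 and -2.9, and Kit had -0.01, -1.55 and -0.93. Tpsb2 was positive in every tumour (1.01, 0.22 and 0.82). Sums over all 9 with a probe, which mix these patterns, were 1764 to 6362 in the tumours, against 4837 to 5136 in the pool. Under other settings up to 2 of the mast cell genes were called lower, among them spike-in centring (2) and processed signals (1). The part of these cells in the ratios of the 36 genes was not tested.

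Fibroblast genes, which mark stroma, were higher as well. Of 9, 8 were called higher, the median log2 ratio of the list was 2.74, and sums were 48066 to 158216 in the tumours, against 16153 to 17802 in the pool, led by Lum (3.62 ± 0.62), Fap (3.20 ± 0.57) and Col1a1 (3.20 ± 1.42). Of 10 epithelial genes 8 were called lower and 1, Epcam (1.20 ± 0.22), higher, with a median of -3.44. Sums were 138461 to 237724 in the tumours, against 1342870 to 1533150 in the pool. Cblif, Atp4b, Atp4a, Muc5ac and Pgc had ratios of -7.89 to -4.92. Cldn18 (-1.96), Krt8 (-1.56), Krt19 (-1.27) and Krt18 (-0.13, not called) differed less. Pgc and Atp4b were the brightest in the pool, at 452303 and 309568 on array 1. Summed over the 38 macrophage and dendritic cell genes with spots, the signal was 48538 to 60723 in the tumours, against 10147 to 11814 in the pool. That sum includes the untested Cd163 and Clec4a2. The part of stromal and epithelial content in the ratios of the 36 genes was not tested.

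**Figure D3:**
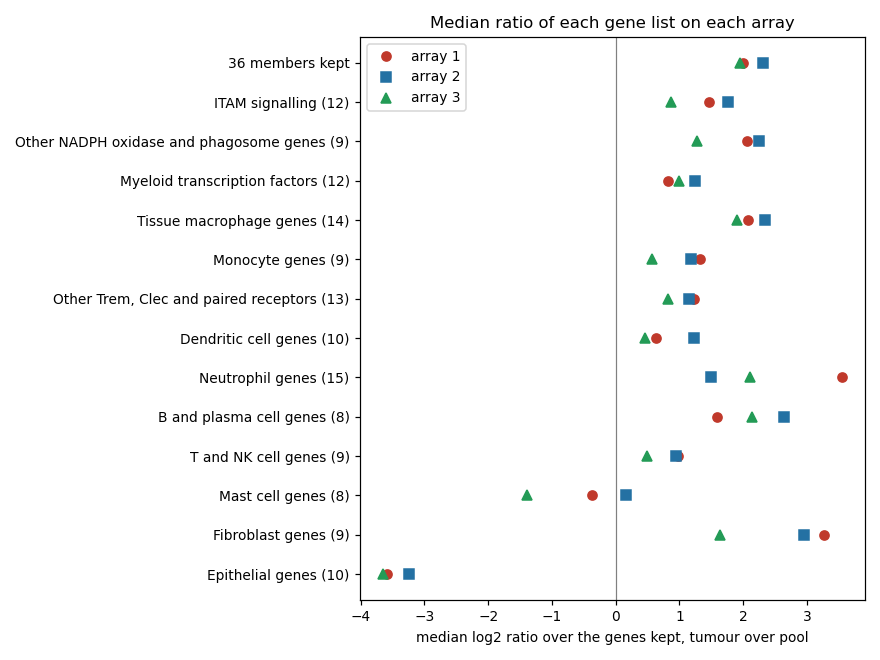
Median log2 ratio on each of the 3 arrays for the 36 genes and for the other gene lists, with the number of genes kept in brackets. The 36 genes sit at 1.95 to 2.31, tissue macrophage genes at 1.89 to 2.34, dendritic cell genes at 0.45 to 1.23, and neutrophil genes at 3.55 in tumour 1 against 1.50 and 2.11 in tumours 2 and 3.

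Other macrophage genes outside the 39 were higher too. Of 14 tissue macrophage genes 10 were called higher, and the median log2 ratio of the list was 2.21. They were led by F13a1, a coagulation factor subunit of macrophages (2.88 ± 0.94), the complement gene C1qb (2.74 ± 0.31), the membrane-spanning gene Ms4a7 (2.73 ± 0.23) and C1qa (2.51 ± 0.42). F13a1 was highest in tumour 1, at 3.96 against 2.37 and 2.31 in tumours 2 and 3, while C1qb and C1qa were lowest there. Of 9 monocyte genes 4 were called higher, and the list median was 1.20. Fn1, the fibronectin gene that fibroblasts also express (4.57 ± 0.44), the chitinase-like gene Chil3 (4.50 ± 0.85) and Ms4a4c (1.08 ± 0.31) were among them.

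Genes acting downstream of the ITAM adaptors were higher as well, with log2 ratios below those of both adaptors. Of 12, 9 were called higher, and the median log2 ratio of the list was 1.37. They included the exchange factor gene Vav1 (2.45 ± 0.30), the inositol phosphatase gene Inpp5d (2.04 ± 0.25), the adaptor gene Blnk (1.65 ± 0.13) and the kinase gene Syk (1.51 ± 0.59). Vav1 had 2058, 2655 and 1682 in the tumours, against 374, 399 and 381 in the pool. Syk had 959.6, 1609.7 and 652 in the tumours, against 343, 373 and 339.8 in the pool, highest in tumour 2 and lowest in tumour 3. Of 9 further NADPH oxidase and phagosome genes 6 were called higher, and the list median was 1.87. The lysosomal protease gene Ctss (4.26 ± 0.76) had a higher log2 ratio than any of the 36, with 7134, 18998 and 18126 in the tumours, against 684, 739 and 696 in the pool. The oxidase subunit gene Cyba (2.92 ± 0.31) and the phagocyte substrate gene Plek (2.41 ± 0.60) were also called higher. Of 13 other Trem, lectin and paired receptors 6 were called higher, and the list median was 1.06. Lilrb4a (3.58 ± 0.91), the probe named Lilrb3, the lectin gene Clec4d (2.69 ± 1.48) and Pilra (2.47 ± 0.62) led. Clec4d and Lilrb4a were highest in tumour 1, and Clec12a and Clec5a were not well above background in any tumour.

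Transcription factors of myeloid cells and markers of dendritic cells had smaller median ratios. Of 12 transcription factor genes 5 were called higher, and the median log2 ratio of the list was 1.01, led by Cebpb (1.96 ± 0.65), Irf8 (1.74 ± 0.61) and Maf (1.58 ± 0.18). Of 15 dendritic cell genes only 10 could be tested, 4 were called higher, and the list median was 0.86. Ccr7, the receptor that guides dendritic cells to lymph nodes, had 236, 1631 and 403 in the tumours, against 99.3, 137 and 126 in the pool (2.17 ± 1.24; adjusted p = 0.0245). Itgax, which encodes CD11c, had 356, 2124 and 839.9 in the tumours, against 164, 283 and 197 in the pool (2.04 ± 0.90; adjusted p = 0.0128). Both were highest in tumour 2, as was the costimulatory gene Cd86. The other called genes were the actin-bundling gene Fscn1 (1.52 ± 0.52) and Cd83 (1.45 ± 0.91). Summed signals of all 15 dendritic cell genes were 39850.4 to 51562 in the tumours, against 36841 to 39612 in the pool. They came mostly from Cst3 and Siglech, which were not called and went opposite ways. Cst3 was lower (-0.57 ± 0.36; adjusted p = 0.0459, under 2-fold) and Siglech higher (0.71 ± 0.19; adjusted p = 0.00984, under 2-fold). Batf3 (1.01), H2-DMb2 (0.55), Flt3 (0.42) and Zbtb46 (0.15) were not called either. Xcr1, which marks cross-presenting dendritic cells, was not well above background in any tumour, and Clec9a, Cd209a, Itgae and Ly75 were too dim to be tested. Of the 39 genes, most are known from macrophages or from myeloid cells in general, so the ratios say little about dendritic cells alone.

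The size of the ratios of dim genes depended on how background was treated. The offset of 50 added before taking logs pulls them towards 0. The 11 genes whose pool signal was not well above background on all arrays had higher ratios without it, though Sfpi1 hardly moved, at 0.013 with an offset of 0, and had 0.66 with processed signals (adjusted p = 0.309). Arg1 had 4.07 with an offset of 0 and 6.05 with the scanner software's processed signals, Clec10a 3.40 and 4.89, and Cd53 2.83 and 3.57. Marco, Gpnmb, Msr1, Cybb, Cd300lb and Cd68 were called higher under both, where Cd68 had 1.13 and 2.58. Some genes well above background in both groups on every array moved too. Ncf1 had 2.63 and 3.09 against 1.58 in the main setting, Cd86 2.04 and 2.71 against 1.30, and Fcgr3 3.16 and 3.58 against 2.33. Cd14 moved less, with 4.32 and 4.40 against 3.72, and the bright gene Lgmn had 2.36 and 2.41 against 2.21. Sfpi1 was not called under either.

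**Figure D4:**
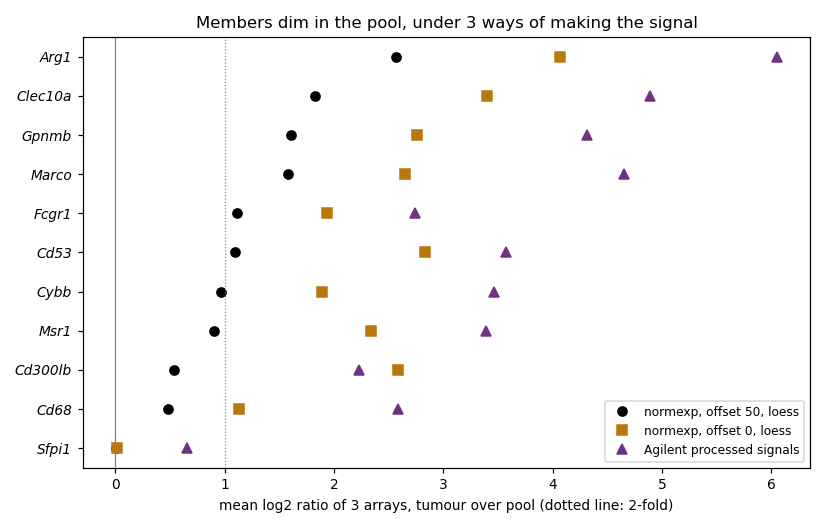
Mean log2 ratio of 3 arrays under 3 ways of making the signal, for the 11 genes whose pool signal was not well above background on all arrays. The ratio of Arg1 lies at 2.57, 4.07 and 6.05 under the 3 settings, and Sfpi1 stays below 1 under each.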

How the data were processed

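The 3 arrays, on 1 slide, were Agilent 2-colour arrays hybridised from 250 ng of total RNA, per the labels. From the deposited scanner files, intensity (mean signal and median local background of each spot) was used, and as alternatives the software's processed intensity and its log10 ratio of red over green, all named in the file headers. Feature Extraction was version 10.7.3.1 by the headers, but 9.5.3 by the submitters' processing notes. The headers give mm9 for probe positions. In a value table of log2 ratios that the authors deposited, 99.8% lay within 0.01 of the scanner ratio on the log2 scale. Its medians were -0.15, -0.13 and -0.11, and it is blank for 48.3 to 49.6% of probes.

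Signals were corrected with normexp at an offset of 50 and normalised within arrays by loess in limma 3.58.1 under R 4.3.3. Spots with outlier flags (157, 167 and 190, of which 1 read one of the 36 genes) were dropped before averaging over a probe. Probes were kept if the scanner software put 1 of the channels well above background on each of the 3 arrays, and the brightest kept probe stood for a gene. Of 39429 probes, 26055 were named by accession through a RefSeq table of GRCm38.p6. Signals per channel follow loess and Aquantile. The two-sided test of a mean ratio of 0 used lmFit and eBayes. A bound of at least N-fold sets the tumour mean against the pool, with each pool signal raised where needed to the lowest one well above background on its array. For the genes given such a bound here no pool signal needed raising. The bound then equals the fitted fold difference and holds for the main setting only. The labels call the tumours separate biological samples.

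The genes and lists were chosen with earlier results of these data known, so their counts are descriptions. Every one of the 39 genes is accounted for, and the text names up to 4 called genes with the largest absolute ratio in each role or list. Some genes that this rule selects are not reported here. Epcam, the epithelial genes beyond the 4 lowest, Cst3, Siglech, Clec9a and other genes that were not called were named after their values were seen. Alternatives were an offset of 0, processed signals, the authors' values, median and spike-in centring, filters, probe rules, a trended prior and leaving out each tumour.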

Additional observations from a re-analysis of the deposited data

How the results depend on the processing

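Of the 27 genes called higher, 24 were called in every alternative that tested them, the exceptions being Clec10a, Fcgr1 and Cd53, and 0 of the 36 were called lower in any. The count was 34 with an offset of 0, 33 with processed signals, 24 of 25 with the authors' values, 32 with median centring, 27 with spike-in centring and 25 to 28 leaving out each tumour. The median log2 ratio of the 36 genes was 2.64 with an offset of 0, 3.02 with processed signals, 2.96 with the authors' values, 3.13 with median centring, 1.84 with the median over a gene's kept probes, 1.83 with every kept probe and 2.10 to 2.15 leaving out each tumour. Nos2 was called higher with an offset of 0, median centring and the authors' values. Median centring moved the median of all genes to 0.77. Over all genes, those called higher numbered 3192 with an offset of 0, 3738 with processed signals, 7747 with median centring, 2865 with spike-in centring and 4765 with no fold criterion. Those called lower numbered 3079 with processed signals, 556 with median centring and 4443 with no fold criterion. Leaving out each tumour gave 1659 to 1686 higher and 1777 to 1921 lower. The share of calls that were higher was 49.1%, against 93.3% with median centring. Sfpi1 was -0.052 with median centring and from -0.12 to 0.13 leaving out each tumour. With spike-in centring it was -0.88 (adjusted p = 0.0206), lower but under 2-fold. Marco (1.29, adjusted p = 0.000514) and Gpnmb (1.29, adjusted p = 0.000563) were called higher with spike-in centring. Ptpn6 was called higher with median centring (1.40) and was -0.017 to 0.41 leaving out each tumour, and with spike-in centring Cd300lb was -0.64 and Cd68 -0.055. Clec10a did not pass when dim probes were kept (adjusted p = 0.0849) or when probes were summarised by their median (adjusted p = 0.0508), and Fcgr1 was 0.93 with spike-in centring. The cause was not tested for any of these. Spike-in centring took the median of the 10 spike-in transcripts, whose intended ratios no source used here gives. No paired analysis was possible because the test already used the ratio of tumour to pool within each array, and the pool, being 1 sample, has no replicate numbers for a further block. Signals near background limit Sfpi1, Cd68, Cd300lb, Cd163 and Clec4a2, and with 1 pool the spread among normal mucosae is unknown.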
